A study of Mus musculus with 8 samples.

Results

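The microRNA profile of wild-type brown fat was described from the 1 small RNA library of wild-type mice (WT, mmu-mir-193b +/+), 1 of 8 samples in the series. All 386 microRNAs listed by the authors were taken, with no selection on their values and no comparison between genotypes. The tissue was brown adipose tissue of mice aged 2 months, on a mixed 129SV::FVB/N::C57BL/6 background. The wild-type mice came from a breeding scheme with a floxed miR-193b allele in which the MMTV-Cre transgene had been segregated out. How many animals the library was made from is not stated in the labels. The other samples were 1 small RNA library of mice lacking miR-193b and mRNA libraries of 3 WT and 3 Null samples. With 1 library there is no replicate spread, so levels are given as values with counting intervals and without tests.

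MicroRNAs are short RNAs cut from hairpin precursors. An arm of the hairpin, named 5p or 3p by its side, is loaded into an Argonaute protein and guides it to messenger RNAs, mostly through the seed, bases 2 to 8 of the mature strand. MicroRNAs with the same seed are grouped as a family because they can pair with the same sites. Brown fat burns fatty acids to make heat, and the authors' deposited FPKM table gave the uncoupling protein gene Ucp1, which carries out that function, 3016 FPKM in the combined WT mRNA samples and the fat cell gene Cidea 2615 FPKM.

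The values are headed RPM, a scaled read count, and are not scaled by length. They summed to 1559381 over the 386 microRNAs, and the 10 highest alone summed to 1034379, more than the 1000000 that a per-1000000 scale allows. They are therefore used as a relative scale and shares are given of the listed sum. All values lay within 0.01 of a whole multiple of 0.0438 RPM. Read as 1 sequenced read, that step put 104 reads behind the lowest entry and 5491473 behind the highest. Intervals in parentheses are exact 95% intervals on that number of reads and describe counting error alone, because PCR copies of a molecule are not independent.

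The mature sequences of the most abundant microRNAs are shown because a few seeds account for much of the profile. They are RefSeq sequences (GRCm38.p6 table), 5′ to 3′, with the seed in capitals, in order of level. Among the 20 highest entries, 7 had no entry in that table and are named only.
miR-22-3p: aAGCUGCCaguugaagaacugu
miR-10b-5p: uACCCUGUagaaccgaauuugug
miR-10a-5p: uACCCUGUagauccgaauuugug
miR-30a-5p: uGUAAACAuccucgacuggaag
miR-26a-5p: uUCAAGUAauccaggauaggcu
miR-30e-5p: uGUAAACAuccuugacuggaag
miR-378d: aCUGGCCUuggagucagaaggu
miR-30c-5p: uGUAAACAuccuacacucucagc
let-7f-5p: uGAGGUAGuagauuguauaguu
miR-16-5p: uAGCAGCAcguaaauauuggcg
miR-126-3p: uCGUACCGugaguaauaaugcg
miR-148a-3p: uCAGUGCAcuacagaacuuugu
miR-92a-3p: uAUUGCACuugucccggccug

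miR-22-3p was the most abundant microRNA of WT brown fat, at 240467 RPM (240266 to 240669), 15.4% of the listed signal. miR-378a-3p, whose hairpin lies within Ppargc1b, the gene of a coactivator of mitochondrial genes, followed at 188029 RPM (187851 to 188207), 12.1%. The paralogs miR-10b-5p and miR-10a-5p, encoded within the Hox gene clusters, were at 108240 and 98700 RPM. miR-143-3p, known from smooth muscle and other mesenchymal cells, was at 95923 RPM. miR-30a-5p was at 77932 RPM, miR-26a-5p at 75064 RPM and miR-30e-5p at 48847 RPM. Between them stood miR-126-5p, a product of the endothelial gene Egfl7, at 61825 RPM. miR-378d, at 39353 RPM, was the tenth.

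The next 10 ranks spanned a narrower range. The muscle microRNA miR-133a-3p was at 31477 RPM, miR-30c-5p at 22345 RPM and let-7f-5p at 21919 RPM. miR-486-5p and miR-3107-5p stood at the same value, 20866 RPM, from 476511 implied reads each. miR-30d-5p was at 19313 RPM, miR-16-5p at 18459 RPM and the other arm of the miR-126 hairpin, miR-126-3p, at 17764 RPM. miR-148a-3p and miR-92a-3p closed the 20 at 17365 and 17204 RPM. The counting intervals of neighbouring ranks did not overlap among these 20, apart from the tied pair, but with 1 library the order has no check between animals.

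The signal was concentrated in few microRNAs. The 6 highest held more than 50% of it, the 35 highest more than 90%, and the 117 highest more than 99%. The 10 highest held 66.3% and the 20 highest 79.6%. The lower 193 of the 386 entries together held 0.251%. The profile was as uneven as one with 31.6 equally abundant microRNAs by Shannon entropy and 16.2 by the inverse Simpson index. The median entry was at 63.3 RPM, with quartiles at 14.9 and 525 RPM, and the lowest, miR-107-5p, was at 4.55 RPM. Of all entries 79 reached 1000 RPM, 28 reached 10000 RPM and 3 reached 100000 RPM.

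**Figure D1:**
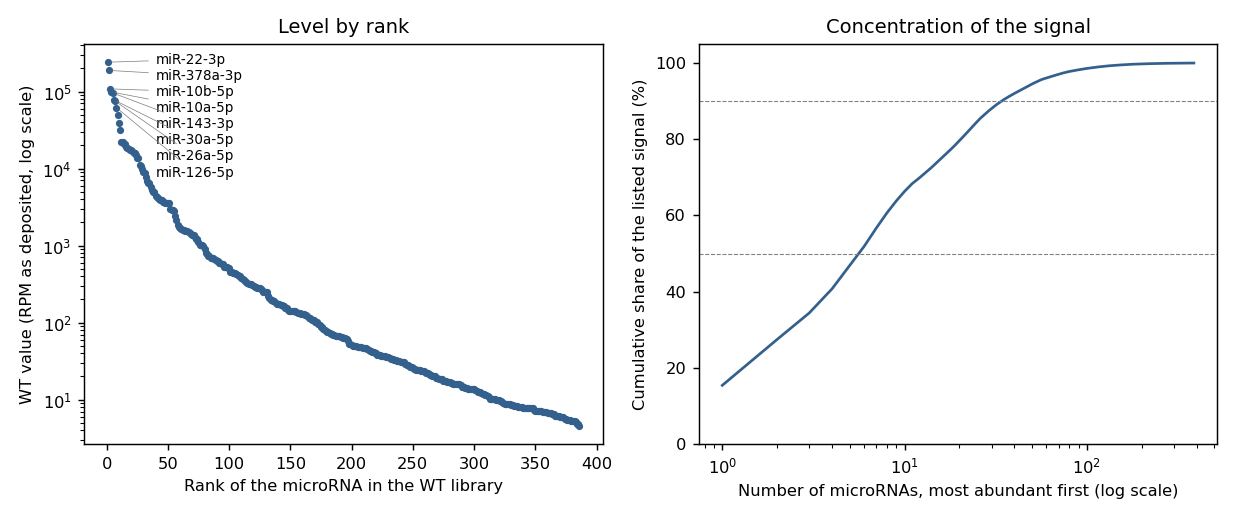
WT value of each of the 386 microRNAs by rank (left; RPM as deposited, log axis, 1 point per microRNA) and the cumulative share of the listed signal in percent against the number of microRNAs, most abundant first (right; log axis). The left curve falls from 240467 to 4.55 RPM, and the right curve crosses the dashed lines at 50% with 6 and at 90% with 35 microRNAs.

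Several abundant entries are near-identical, so that their reads may be hard to tell apart. Of the 330 microRNAs with a RefSeq sequence, 69 fell into 29 groups joined by at most 2 mismatches, and these held 41.8% of the listed signal. miR-10a-5p and miR-10b-5p differ by 1 mismatch, as do miR-30a-5p and miR-30e-5p. miR-378d (39353 RPM) and miR-378c (4891 RPM) differ by 2 mismatches. miR-378a-3p had no RefSeq sequence, so its likeness to them was not measured. miR-199a-3p and miR-199b-3p have the same mature sequence, and both were listed at 3590 RPM with 81986 implied reads. miR-101a-3p and miR-101c, which has the same letters over a shorter stretch that starts 1 base later, were at 6414 and 6412 RPM. Whether shared reads were counted in each row or split between rows is not stated in the labels. With each near-identical group counted once, at its highest entry, the list summed to 1336531 RPM, still above 1000000.

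Seed groups were formed from the 330 microRNAs with a sequence, which held 69.7% of the signal. The 56 others, among them miR-378a-3p, miR-143-3p, miR-126-5p and miR-133a-3p, stand as single entries. There were 263 seeds, of which 41 were shared by 2 or more listed microRNAs, 108 in all. Shared seeds held 44.2% of the listed signal. With the 56 counted singly, 4 groups held more than 50% of the signal and 23 held more than 90%, against 6 and 35 single microRNAs.

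Ranks of seeds are given among the 263 seeds and leave out the entries without a sequence. Of those entries, miR-378a-3p (188029 RPM) stood above the miR-30 sum given below. miR-143-3p (95923 RPM) stood above the miR-26 sum, and miR-126-5p (61825 RPM) above the let-7 sum. The miR-22 seed AGCUGCC had only miR-22-3p and ranked first with 240467 RPM. The miR-10 seed ACCCUGU ranked second with 206939 RPM, 13.3% of the signal, split almost evenly: miR-10b-5p made up 52.3% of it. The miR-30 seed GUAAACA came next with 149123 RPM over miR-30a-5p, miR-30e-5p and miR-30c-5p, of which miR-30a-5p made up 52.3%. miR-30d-5p and miR-30b-5p (5323 RPM) belong to the same family by name but had no sequence in the table. With them the miR-30 sum was 173760 RPM, 11.1% of the signal, and its rank among the seeds was the same. Placed by name in the same way, miR-133a-3p would join miR-133b-3p in a group of 32166 RPM, 2.06% of the signal, above the 26058 RPM of the miR-15/16 group, and the groups from there on would move down by 1 rank. The miR-26 seed UCAAGUA followed with 84824 RPM, of which miR-26a-5p made up 88.5% and miR-26b-5p, at 9761 RPM, the rest.

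The let-7 seed GAGGUAG had the most members, 9, and summed to 58231 RPM, 3.73%. The let-7 family is known for restraining proliferation and promoting differentiation. No single member dominated it. let-7f-5p, the highest, made up 37.6% of the sum, followed by let-7c-5p at 10633 RPM, let-7a-5p at 8816 RPM and let-7g-5p at 5675 RPM. let-7i-5p was at 3912 RPM, let-7b-5p at 3574 RPM and let-7d-5p at 2439 RPM. let-7e-5p and miR-98-5p were lowest at 681 and 581 RPM. The sequences below show how few bases separate the more abundant members, with the seed in capitals.
let-7f-5p: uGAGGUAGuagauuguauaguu
let-7c-5p: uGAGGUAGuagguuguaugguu
let-7a-5p: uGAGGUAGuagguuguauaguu
let-7g-5p: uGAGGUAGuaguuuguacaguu
let-7i-5p: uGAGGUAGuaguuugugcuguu

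Below let-7, the sums were smaller and mostly carried by 1 member. miR-378d stood alone in its seed, among the entries with a sequence, at 39353 RPM. The miR-15/16 seed AGCAGCA, whose family is known for restraining the cell cycle, summed to 26058 RPM over 6 members. miR-16-5p made up 70.8% of it, ahead of miR-322-5p at 3574 RPM, miR-15a-5p at 1702 RPM, miR-195a-5p at 1214 RPM, miR-497-5p at 1001 RPM and miR-15b-5p at 108 RPM. The miR-99/100 seed ACCCGUA summed to 22343 RPM, with miR-99b-5p at 13520 RPM, miR-100-5p at 6973 RPM and miR-99a-5p at 1850 RPM.

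The miR-125 seed CCCUGAG summed to 20761 RPM, with miR-125a-5p at 15689 RPM, miR-125b-5p at 4277 RPM and miR-351-5p at 795 RPM. In the next 3 groups the top member made up over 90% of the sum. They were the miR-25/92 seed AUUGCAC at 18987 RPM, with miR-92a-3p at 90.6% of it, the miR-148/152 seed CAGUGCA at 18927 RPM, with miR-148a-3p at 91.7%, and the miR-27 seed UCACAGU at 18046 RPM, with miR-27b-3p at 92.5%. The lower members of these were miR-25-3p (1662 RPM), miR-32-5p (83.5 RPM) and miR-92b-3p (36.7 RPM) in the first, miR-148b-3p (903 RPM) and miR-152-3p (660 RPM) in the second, and miR-27a-3p (1362 RPM) in the third. Over all 41 shared seeds the top member made up a median of 68.3% of its group, and over 90% in 6. These 12 groups together held 58.0% of the listed signal.

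**Figure D2:**
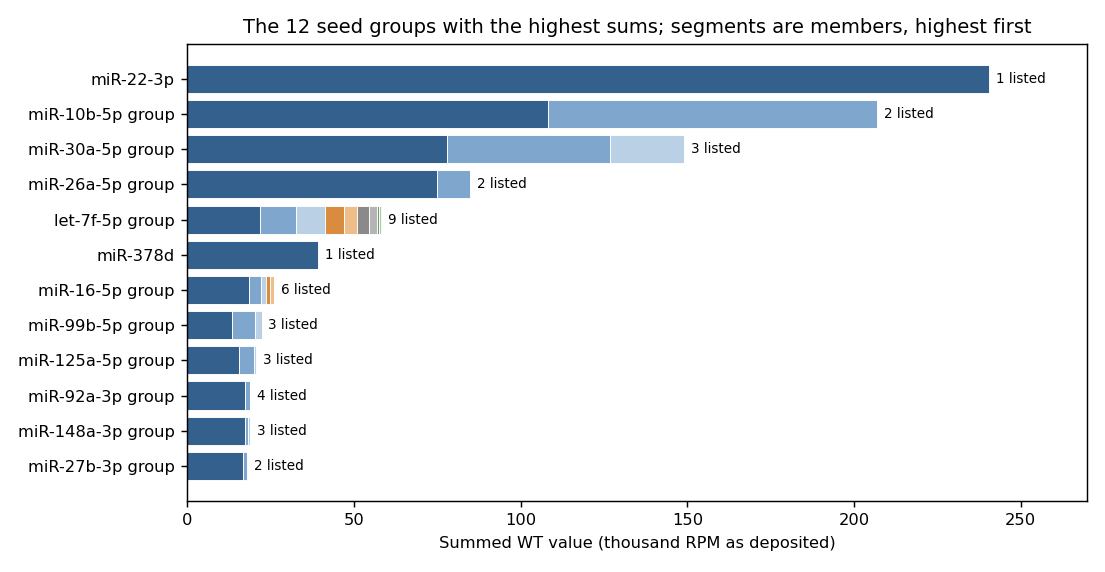
Summed WT value (RPM as deposited, axis in units of 1000) of the 12 seed groups with the highest sums, formed from the microRNAs with a RefSeq sequence; each bar is named by its highest member and split into members, highest first. The miR-22-3p and miR-378d bars hold 1 microRNA each, while the let-7 bar of 58231 RPM is split over 9.

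The miR-193 seed, of the family whose miR-193b gene was deleted in the other genotype, ranked twentieth among the 263 seeds with 7561 RPM. Its members miR-193a-3p and miR-193b-3p were at 3857 RPM (3831 to 3882) and 3705 RPM (3680 to 3730), so that miR-193a-3p made up 51.0% of the sum. The cluster partner miR-365-3p, which 2 hairpins give, was at 1442 RPM. miR-378d was at 39353 RPM, and whether its entry shares reads with miR-378a-3p was not tested. Bases 3 to 8 of the miR-193 seed are the same letters as bases 2 to 7 of miR-378d, as the sequences show with bases 2 to 8 in capitals.
miR-193a-3p: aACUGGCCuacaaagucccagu
miR-193b-3p: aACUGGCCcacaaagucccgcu
miR-378d: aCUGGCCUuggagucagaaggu

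Such 1-base offsets joined other abundant seeds as well. The miR-15/16 seed AGCAGCA is offset by 1 base from the miR-103/107 seed GCAGCAU, which summed to 7856 RPM over miR-103-3p (4970 RPM) and miR-107-3p (2886 RPM). The miR-148/152 seed CAGUGCA is offset from the seed AGUGCAA of miR-130a-3p, miR-301a-3p and miR-130b-3p, which summed to 1544 RPM.

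Arm use was read from the 126 precursors with both arms listed. They took up 246 entries and 91.7% of the listed signal. A further 123 entries had an arm in their name but no listed partner, 65 of them 5p and 58 3p, and 17 entries carried no arm. Because the weaker arm had to be listed, the most one-sided precursors of low level cannot be seen in this set. Where 2 hairpins give the same mature strand, that strand holds the reads of both, and the ratio against a partner made by 1 hairpin is raised by it. In 12 of the 126 the shared strand was set against each of 2 listed partners. The same holds for precursors with 1 listed partner, among them miR-26a-2, miR-181a-1, let-7c-2 and miR-92a-1.

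The 5p arm was the higher in 73 of the 126 precursors, 57.9%, and the 3p arm in 53. The higher arm exceeded the lower by a median of 16.8-fold, 24.9-fold where the 5p arm led and 16.1-fold where the 3p arm led. In the 88 precursors whose arms each have 1 hairpin in the reference, the median was 9.29-fold. The arms were 10-fold or more apart in 71 precursors, 56.3% of all. Of these, 43 favoured 5p, 34.1% of the 126, and 28 favoured 3p, 22.2%. In 41 precursors the arms were 100-fold or more apart, and in 12 they were 1000-fold or more apart. In 21 they were within 2-fold. Over all entries with an arm in the name, the 5p arms held 52.8% of the signal.

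The precursors that most favoured 5p were abundant. For miR-26a-2 the arms were at 75064 and 6.00 RPM, a ratio of 12512, but miR-26a-5p also comes from a second hairpin. miR-10b had 108240 and 17.0 RPM, a ratio of 6354 (5753 to 7036), and miR-10a 98700 and 63.2 RPM, a ratio of 1561 (1482 to 1645). The intervals of these paralogs did not overlap. miR-125a had a ratio of 1958, miR-150, a microRNA of mature lymphocytes, 1602, miR-191 1115 and miR-99b 570. The shared strand miR-16-5p exceeded the 3p arms of its hairpins miR-16-2 and miR-16-1 by 1351-fold and 1330-fold, and let-7f-5p exceeded let-7f-1-3p by 456-fold.

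On the 3p side, miR-143 was the most one-sided, with 48.2 RPM for 5p and 95923 RPM for 3p, a ratio of 1991 (1877 to 2115). miR-22 had 171 RPM for 5p against 240467 RPM for 3p, 1407-fold (1364 to 1453), so that even the weak arm of this precursor was above the median entry. miR-92a-3p, which also comes from a second hairpin, exceeded miR-92a-1-5p by 1243-fold. The 3p arm led by 1027-fold in miR-29a, which represses collagen genes, and by 874-fold in miR-27b. In miR-107 it led by 634-fold, in miR-203 by 261-fold and in the muscle precursor miR-133a by 240-fold. miR-127 and miR-27a completed the 10 with ratios of 186 and 176. The 3p arm led by 97.8-fold in miR-193b and by 122-fold in its cluster partner miR-365-1, with the same reads of miR-365-3p set against miR-365-2-5p giving 154-fold. miR-193a stood at 141.1-fold.

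Both arms were abundant in only 5 precursors, taken as 1000 RPM or more in each. miR-126 had the highest weaker arm of all, 17764 RPM for 3p beside 61825 RPM for 5p, a ratio of 3.48. miR-151 had 3984 RPM for 5p and 3000 RPM for 3p, a ratio of 1.33 (1.31 to 1.34). miR-30a (77932 and 1232 RPM), miR-30e (48847 and 1432 RPM) and miR-378a (1602 and 188029 RPM) reached the level through a small share of a very abundant precursor.

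Near-balanced precursors were otherwise of low or middle level. The ratio of 5p to 3p was 1.02 (0.830 to 1.26) in miR-540, 1.05 (0.898 to 1.23) in miR-212 and 1.10 (0.883 to 1.37) in miR-877, and the 3p arm of miR-669a exceeded the 5p arm by 1.05-fold (0.839 to 1.32). In these 4 the difference between arms was within counting error. The miR-669a arms had the same implied reads as miR-669o-3p (163) and miR-669p-5p (155), so the miR-669a ratio may not be that of 1 precursor. Small differences were beyond it in miR-872, where 3p led by 1.07-fold (1.02 to 1.12), and in miR-136 (1.07-fold, 1.04 to 1.11). The red cell precursor miR-144 was also close to balance, at 377 RPM for 5p and 424.8 RPM for 3p (1.13-fold, 1.09 to 1.16). The 5p arm led by 1.16-fold in miR-708, by 1.23-fold in miR-350 and by 1.27-fold in miR-219-1.

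**Figure D3:**
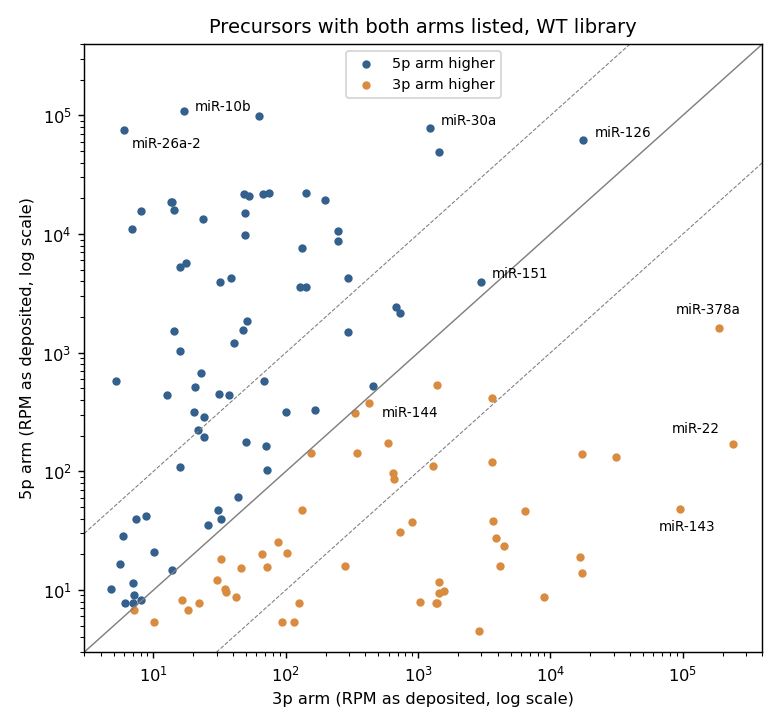
5p arm against 3p arm (RPM as deposited, both axes log) for the 126 precursors with both arms listed; the solid line marks equal arms and the dashed lines a 10-fold difference. Blue points (73) have the higher 5p arm and orange points (53) the higher 3p arm, and miR-126 and miR-151 lie near the solid line at high level.

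The difference between the arms grew with the level of the higher arm. Its median was 2.14-fold in the 31 precursors whose higher arm was under 100 RPM, 7.86-fold in the 32 from there to 1000 RPM, 102-fold in the 36 up to 10000 RPM and 456-fold in the 27 above. Part of this rise is built in, since the higher arm is also the numerator of the ratio and the lowest listed value caps the ratio of low precursors. How much of it is was not tested. Among the 27 above 10000 RPM the smallest ratio was the 3.48 of miR-126.

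In the miR-30 and let-7 families every listed precursor favoured the same arm, to different degrees. All 6 miR-30 precursors favoured 5p, by 34.1-fold in miR-30e, 63.3-fold in miR-30a, 97.7-fold in miR-30d, 156-fold in miR-30c-2, 297-fold in miR-30c-1 and 335-fold in miR-30b. The let-7 precursors also favoured 5p, with let-7d the most balanced at 3.56-fold (2439 and 685 RPM) and let-7f-1 the most one-sided. Both let-7f-5p and miR-30c-5p pool 2 hairpins, which raises their ratios. Among let-7 precursors whose arms each have 1 hairpin in the reference, let-7g was the most one-sided at 323-fold. The 3p entries let-7a-1-3p and let-7c-2-3p have the same sequence and the same value, 250 RPM. Other seed mates could differ in degree as well. miR-132-3p and miR-212-3p share a seed, but the 3p arm led by 21.2-fold in miR-132 while the arms of miR-212 were within counting error of each other. For miR-24, miR-24-2-5p was at 533 RPM and miR-24-1-5p at 7.84 RPM, both below a shared 3p strand at 1378 RPM. That strand pools both hairpins, so which arm led in each hairpin alone is not known.

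The first base of the strand differed between strong and weak arms. Argonaute proteins are known to favour strands that begin with U or A. In the 109 precursors with sequences for both arms, the higher arm began with U in 62, 56.9%, and the lower arm in 21, 19.3%. An A stood first in 22 higher and 38 lower arms, and a C in 16 higher and 39 lower arms. Among the 59 of these precursors with arms 10-fold or more apart, the higher arm began with U in 43 and the lower arm in 6. Among the 19 within 2-fold, the counts were 7 and 5. The pattern held on both sides: where 5p led, 37 of 64 higher and 11 of 64 lower arms began with U, and where 3p led, 25 of 45 and 10 of 45.

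Strands that begin with U also held a larger share of the signal than of the entries. The entries without a sequence, with 30.3% of the listed signal, are left out of this count. Of the 330 microRNAs with a sequence, 135, or 40.9%, began with U, and they held 61.8% of the signal of the 330. An A stood first in 93 entries, or 28.2%, with 32.7% of the signal, chiefly through miR-22-3p. C and G stood first in 75 and 27 entries with 4.91% and 0.635% of the signal. Of the 13 entries with a sequence among the 20 highest, 11 began with U. These are descriptions of sequences that share families and hairpins, and are not independent points. The arms of miR-10b, with bases 2 to 8 in capitals, differ in this way, while both arms of miR-22 begin with A.
miR-22-3p: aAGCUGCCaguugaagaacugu
miR-22-5p: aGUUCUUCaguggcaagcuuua
miR-10b-5p: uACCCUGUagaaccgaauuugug
miR-10b-3p: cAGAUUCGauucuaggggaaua

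MicroRNAs typical of single cell types were next looked up as a description of the tissue. In bulk tissue, fewer cells of a type and less RNA per cell cannot be told apart. Lists of 10 cell types were used, with miR-203 in 2 of them. The adipocyte list, which also holds broadly expressed families such as miR-30, miR-26 and miR-27, summed to 536450 RPM over 43 listed members, 34.4% of the signal, led by miR-378a-3p. miR-455-5p and miR-455-3p, which promote brown fat formation, were at 329 and 167 RPM, and miR-196a was not listed. miR-34a-5p was at 63.3 RPM, and miR-33-5p, encoded in the sterol regulator gene Srebf2, at 11.6 RPM.

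The smooth muscle and endothelial lists had the next highest sums. The pair miR-143 and miR-145a of the smooth muscle list summed to 98871 RPM, 6.34%, with miR-145a-5p at 2172 RPM and miR-145a-3p at 728 RPM. Almost all of the sum came from miR-143-3p, which is also known from other mesenchymal cells. The 2 arms of the endothelial miR-126 summed to 79589 RPM, 5.10%.

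The muscle list summed to 33903 RPM, 2.17% of the signal, and miR-133a-3p alone made up most of it. miR-1a-3p, which is cut from the same primary transcripts as miR-133a, was at 1029 RPM. miR-133b-3p was at 689 RPM, miR-208b-3p, encoded in the slow myosin gene Myh7, at 435 RPM, miR-499-5p at 69.8 RPM and miR-206-3p at 63.1 RPM. miR-208a, encoded in the cardiac myosin gene Myh6, was not listed. Whether muscle tissue was part of the sample was not tested.

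The red cell and immune lists had sums of a similar size to that of the muscle list. The red cell list summed to 25374 RPM, most of it from miR-486-5p at 20866 RPM. Whether miR-486-5p came from red cells was not tested. The other red cell members were lower, with miR-451a, which is matured without Dicer, at 3653 RPM and miR-144-3p at 424.8 RPM. The listed immune members summed to 28817 RPM, of which miR-181a-5p, also expressed outside the immune system, had 15201 RPM and miR-150-5p 11014 RPM. The other listed members were lower. The pan-leukocyte miR-142-5p was at 1498 RPM, miR-146b-5p at 280 RPM, the myeloid miR-223-3p at 93.0 RPM and miR-155-5p at 74.97 RPM.

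Most microRNAs that define epithelia, liver, neurons and endocrine cells were low or not listed, with miR-182-5p and miR-203-3p as the highest exceptions. The epithelial list summed to 18815 RPM, of which these members (13861 and 4166 RPM) made up nearly all. Its members miR-183-5p (581 RPM) and miR-96-5p (79.3 RPM) were also above the median entry. The members of the miR-200 family, which define epithelia, were below the median entry of 63.3 RPM, with miR-200a-3p at 24.1 RPM, miR-200b-3p at 23.6 RPM and miR-141-3p at 22.1 RPM, while miR-200c and miR-429 were not listed. The liver microRNA miR-122-5p was at 25.2 RPM. Of the neuronal list miR-128-3p was highest at 248 RPM and miR-124 was not listed. The neuronal members miR-132-3p and miR-138-5p were at 115 and 114 RPM, above the median entry like miR-128-3p. The endocrine miR-375 was not listed either, and miR-7a-5p was at 6.79 RPM. Entries that are not listed are not analysed here, and the lowest mean of the 2 libraries in the table was 5.10 RPM.

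**Figure D4:**
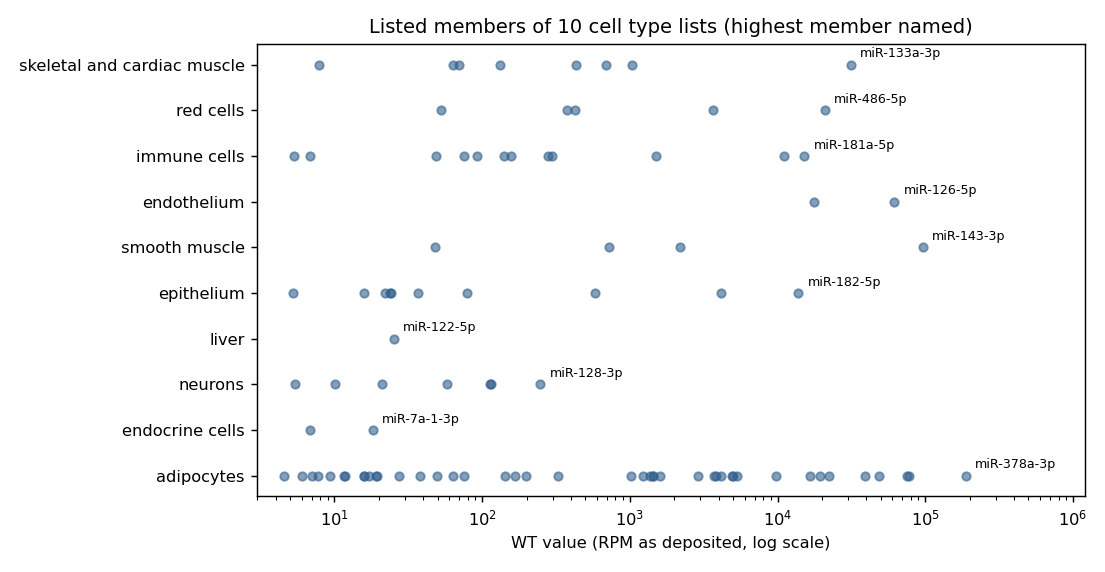
WT value (RPM as deposited, log axis) of each listed member of 10 cell type lists, 1 point per mature strand, with the highest member named. The adipocyte, smooth muscle and endothelial lists have a highest member at 61825 RPM or more, while liver, neuronal and endocrine members lie at or below 248 RPM.

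Most clusters of microRNAs encoded together held members of different level. In 19 clusters with 2 or more listed microRNAs, the higher listed arm of each microRNA was taken. The top member exceeded the lowest by a median of 9.43-fold, and by 10-fold or more in 9. The widest range was in the miR-17 to miR-92a-1 cluster, known as an oncogene, from miR-92a-3p at 17204 RPM to miR-18a-5p at 18.5 RPM, 931-fold. Its other members were miR-19b-3p at 408 RPM, miR-20a-5p at 292 RPM, miR-17-5p at 194 RPM and miR-19a-3p at 46.2 RPM. miR-92a-3p and miR-19b-3p also come from a second hairpin.

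In the miR-183 cluster, miR-182-5p was 175-fold above miR-96-5p (79.3 RPM), with miR-183-5p between them at 581 RPM. All of these have 1 hairpin in the reference. miR-322-5p was 101-fold above miR-503-3p (35.4 RPM), with miR-351-5p between them at 795 RPM. miR-503-5p was not listed, so the higher arm of that hairpin and the range of its cluster are not known. miR-143-3p was 44.2-fold above miR-145a-5p. miR-191-5p (16068 RPM) was 31.2-fold above miR-425-5p (515 RPM). In the miR-125a cluster, miR-125a-5p and miR-99b-5p were close and let-7e-5p was 23.0-fold below the first.

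Clusters of even level were fewer, with a range under 2-fold in 3. They were miR-200a-3p and miR-200b-3p (1.02-fold), miR-195a-5p and miR-497-5p (1.21-fold), and miR-23a-3p (1752 RPM), miR-24-3p and miR-27a-3p (1.29-fold). miR-429, of the same cluster as the miR-200 pair, was not listed, so the range of that whole cluster is not known. miR-24-3p also comes from a second hairpin. The paralogous cluster of miR-23b was uneven, with miR-27b-3p at 16684 RPM and miR-23b-3p at 1528 RPM. In the cluster of miR-193b and miR-365-1, miR-193b-3p was 2.57-fold above miR-365-3p.

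**Figure D5:**
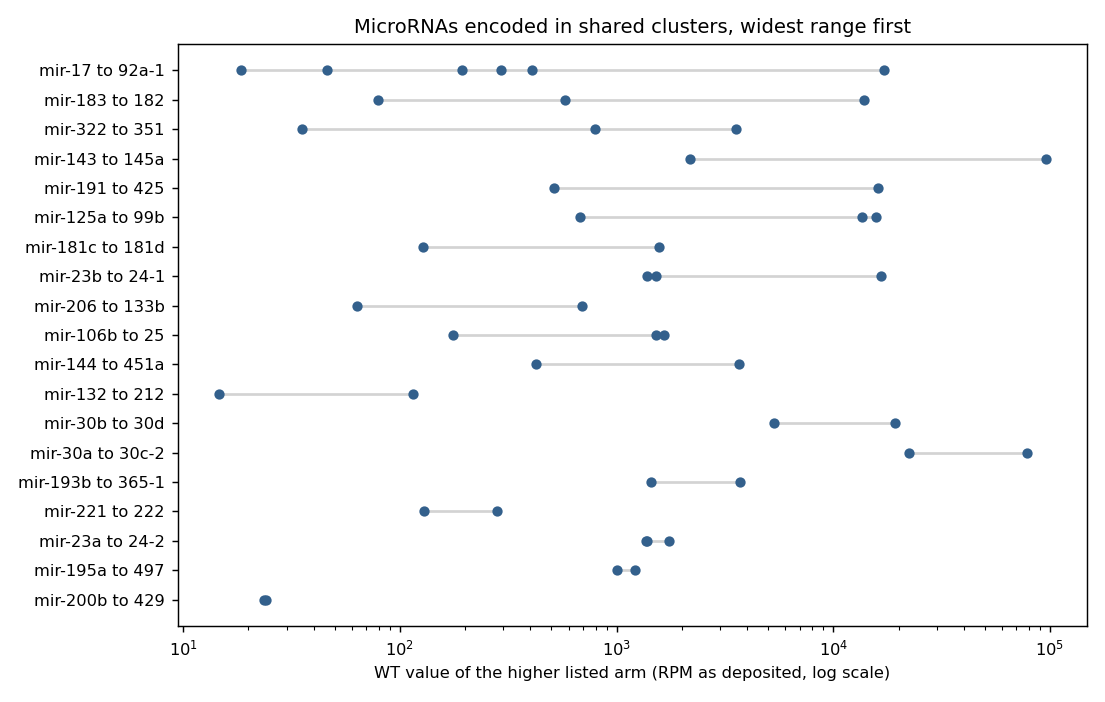
WT value of the higher listed arm (RPM as deposited, log axis) of each microRNA in 19 clusters of microRNAs encoded together, ordered from the widest to the narrowest range; points are microRNAs and grey lines join a cluster. The miR-17 to miR-92a-1 cluster spans 931-fold and the miR-200b to miR-429 cluster, with miR-429 not listed, 1.02-fold over its 2 listed members.

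Host genes were set beside their microRNAs for 24 pairs. In all 20 pairs whose microRNA had a position in the RefSeq tables, it lay within the span of the named gene. The authors' deposited FPKM values of the combined WT mRNA samples come from other libraries. Ppargc1b was at 23.1 FPKM beside miR-378a-3p at 188029 RPM. Egfl7 was at 63.7 FPKM beside miR-126-5p at 61825 RPM. Pank1, a pantothenate kinase of coenzyme A synthesis, had the highest host level, 113 FPKM, beside miR-107-3p at 2886 RPM, whereas its paralog Pank3 was at 57.4 FPKM beside miR-103-3p at 4970 RPM, which a second hairpin also gives. The phosphatase genes Ctdsp1 and Ctdspl were at 53.2 and 15.6 FPKM beside miR-26b-5p at 9761 RPM and miR-26a-5p at 75064 RPM, again with a second hairpin. In the Pank and Ctdsp pairs the order of the hosts was thus the reverse of that of their microRNAs. In each of those pairs the higher microRNA pools reads of a second hairpin, so the reversal may not hold for the named hairpin alone. Myh7 and Myh7b had the same order as their microRNAs. Myh7 was at 18.3 FPKM beside miR-208b-3p at 435 RPM, and Myh7b at 0.654 FPKM beside miR-499-5p at 69.8 RPM.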

How the data were processed

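Per the labels' protocols, RNA came from an miRNeasy extraction, and the small RNA library from version 1.5 of an Illumina kit. The authors deposited 1 signal per microRNA and library, headed RPM per the file headers. Per the submitters' processing notes the build was mm9 and the tools included BWA, CASAVA, TopHat, DESeq and edgeR. Which of them aligned the small RNA reads, how reads with several matches were treated and which filter set the list are not stated there. The mRNA values are FPKM deposited by the authors, 1 column for the 3 WT samples. The list holds 386 microRNAs, whose reads were implied from the common step of 0.0438 RPM: 35611070 on the list and 22836670 for the scaling total.

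From these values ranks, shares, seed sums and arm ratios were computed (Python 3.11.15, pandas 2.3.3, scipy 1.17.1), with exact Poisson intervals for levels and exact Clopper-Pearson intervals for ratios. The scripts were tested on simulated data. Sequences of 330 entries were matched by name to RefSeq (GRCm38.p6), 7 of them under a newer name, and 56 had no match. A strand shared by 2 hairpins was paired with each partner. Adapter ligation favours some sequences, so levels of different microRNAs carry a bias that was not measured here.

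The microRNAs named are the 20 highest, the 12 largest seed groups with their members, the 10 most one-sided precursors per arm, the 10 most balanced, those with both arms at 1000 RPM or more, and members of the lists and clusters. The design, the lists and the rule were chosen with earlier results of these data known. No test was run, since the library is the only WT small RNA sample. The Null library was not analysed here, apart from its part in the mean that sets the lower limit of the list.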

Additional observations from a re-analysis of the deposited data

How the results depend on the processing

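Values that are counts of microRNAs, seeds or precursors mostly moved by less than 1.5 times under the alternatives tried: leaving out miR-22-3p, keeping entries of at least 10 RPM, seeds of bases 2 to 7, adding 1 RPM to each arm, and, chosen after seeing the data, counting identical entries or shared arms once and placing microRNAs without a sequence by name. The exceptions came with precursors whose arms each have 1 hairpin in the reference. Of these 88, 44 had arms 10-fold or more apart and the median ratio was 9.29, against 71 of 126 and 16.8, while the share with the higher 5p arm was 58.0% against 57.9%. That setting also drops precursors whose arms have no sequence; which of these accounts for the change was not tested. The share of the 10 highest microRNAs was 103% with the implied scaling total as denominator, which shows that total to be no usable denominator, 66.4% for entries of at least 10 RPM, 70.4% with near-identical sequences counted once and 67.4% with identical entries counted once. The share of the largest seed group, miR-22, was 24.05% of the scaling total and 17.99% with near-identical sequences counted once. No paired analysis was possible because a single library was described and no test compares groups. Depth limits little here, since each entry has at least 104 implied reads; the spread between animals is unknown.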

Other observations

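Some further values of the list follow. miR-21a-5p, raised in many growing or inflamed tissues, was at 7689 RPM with its 3p arm at 132.6 RPM. miR-127-3p, from the imprinted Dlk1-Dio3 locus, was at 4422 RPM, beside miR-411-5p at 1032 RPM and miR-434-3p at 644 RPM. miR-192-5p, known from liver and gut, was at 2936 RPM, far above the 25.2 RPM of miR-122-5p. The entry miR-3107-5p was listed at 20866 RPM with no 3p partner, at the same number of implied reads as miR-486-5p.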
